A study of Mus musculus with 45 samples.

Results

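The 8 genes described here encode the 4 Mef2 transcription factors (Mef2a, Mef2b, Mef2c and Mef2d) and the 4 class IIa histone deacetylases that bind them (Hdac4, Hdac5, Hdac7 and Hdac9). They were chosen by family name, by matching the Ensembl identifiers of the count table to these 8 mouse symbols, out of 54532 genes in the table. All 8 were found and had reads in every condition.

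RNA was sequenced from primary hippocampal neurons of newborn (P0) C57BL/6N mice, grown in medium with B27 and rat serum, given AraC on day in vitro (DIV) 3 and treated on DIV10/11 by the labels (DIV11 by the methods for sequencing). There were 45 libraries: 9 conditions with 5 libraries each. The labels number these 5 libraries 1, 3, 6, 7 and 8, and each number is read here as 1 culture preparation. Untreated neurons (Control) were compared with neurons in which bicuculline (Bic, 50 µM), a blocker of GABA type A receptors, had driven action potential (AP) firing for 0.5, 1 or 2 h. In the short protocol (SP), 0.5 h of Bic was followed by 0.5 h in which tetrodotoxin (TTX, 1 µM, which silences AP firing) or TTX together with NMDA (30 µM) was added. The long protocol (LP) began with 1 h of Bic, to which TTX, TTX/NMDA or TBOA was added for 1 h more. TBOA (50 µM) is a blocker of glutamate uptake that lets glutamate spill over to receptors outside the synapse. Bic stayed in the medium throughout. TTX against Bic alone therefore measured the passive effect of silencing, TTX/NMDA against TTX the active effect of NMDA receptor signaling, and TTX/NMDA against Bic alone the total.

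Mef2 proteins are DNA-binding activators and are known in neurons for linking calcium entry to genes that shape synapses. Class IIa HDACs have little deacetylase activity of their own and act mainly as repressors that sit on Mef2 proteins and bring in corepressors. When calcium-dependent kinases phosphorylate them, 14-3-3 proteins hold them in the cytoplasm and Mef2 proteins are released, a switch that works on the proteins and can leave the mRNA levels measured here as they are.

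In the mouse genome (GRCm38), Mef2a (ENSMUSG00000030557) lies at chr7:67231163-67372858 on the minus strand, Mef2c (ENSMUSG00000005583) at chr13:83504034-83667080 on the plus strand and Mef2d (ENSMUSG00000001419) at chr3:88142372-88172086 on the plus strand. Mef2b (ENSMUSG00000079033) lies at chr8:70139711-70167488 on the plus strand. Of the deacetylases, Hdac4 (ENSMUSG00000026313) lies at chr1:91928779-92195699, Hdac5 (ENSMUSG00000008855) at chr11:102194432-102230166, Hdac7 (ENSMUSG00000022475) at chr15:97792664-97844502 and Hdac9 (ENSMUSG00000004698) at chr12:34047580-34917095, all on the minus strand. All are protein-coding genes, and the counts cover their exons, untranslated parts included.

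The stretches around the transcription starts of the 5 members that were lower after LP TTX/NMDA than after 2 h Bic are shown first, because these 5 shared a direction in that comparison. Each runs 5′ to 3′ from 150 bases before to 25 bases after the start (RefSeq, GRCm38.p6). All 8 members matched the table of starts, with 14 windows of 300 bases in all (250 before and 50 after the start), since Hdac9 has 2, Mef2c 3 and Hdac7 4 annotated starts. Capitals mark matches, on either strand, to the MEF2 site, to the core letters TGACG of the cyclic AMP response element (CRE), or to the AP-1 letters TGANTCA.
Mef2a, chr7:67372834-67373008, minus strand: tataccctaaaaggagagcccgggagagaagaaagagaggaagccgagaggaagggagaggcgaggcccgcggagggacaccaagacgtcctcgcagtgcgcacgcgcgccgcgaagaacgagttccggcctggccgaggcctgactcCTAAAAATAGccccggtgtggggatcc
Mef2d, chr3:88142222-88142396, plus strand: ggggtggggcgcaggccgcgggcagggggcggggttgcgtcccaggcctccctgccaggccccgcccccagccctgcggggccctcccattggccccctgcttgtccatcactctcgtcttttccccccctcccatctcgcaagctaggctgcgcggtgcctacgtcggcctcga
Hdac4, chr1:92180317-92180491, minus strand: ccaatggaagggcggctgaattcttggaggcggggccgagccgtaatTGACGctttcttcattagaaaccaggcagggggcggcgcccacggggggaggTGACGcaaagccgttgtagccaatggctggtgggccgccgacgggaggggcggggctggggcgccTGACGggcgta
Hdac5, chr11:102230148-102230322, minus strand: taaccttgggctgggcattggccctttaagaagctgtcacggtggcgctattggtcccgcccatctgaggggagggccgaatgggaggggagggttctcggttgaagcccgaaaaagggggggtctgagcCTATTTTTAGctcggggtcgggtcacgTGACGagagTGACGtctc
Hdac9, the one of its starts with a match, chr12:34528865-34529039, minus strand: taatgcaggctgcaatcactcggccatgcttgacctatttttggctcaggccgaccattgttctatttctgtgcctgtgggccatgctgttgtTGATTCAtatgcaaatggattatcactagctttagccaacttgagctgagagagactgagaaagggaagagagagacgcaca
In the windows of 300 bases, the MEF2 site was found in Mef2a, from base -2 to base 8 around the start (the first transcribed base is 1 and there is no base 0), and in Hdac5, from base -20 to base -11, and in no other member. Of all 32851 promoter windows, 3.19% held it. The core TGACG stood at 3 places in the Hdac4 window and at 2 in the Hdac5 window, and 20.8% of all windows held it at least 1 time. The AP-1 letters, found in 7.81% of all windows, occurred in 1 window each of Mef2c, Hdac7 and Hdac9. No member window held the full palindromic CRE, in which TGACG is followed by TCA, or the CArG box of the serum response element, which 1.79% and 1.63% of all windows held. The full CRE contains the core TGACG, so these searches overlap. A match is a run of letters and was not examined for binding.

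The libraries held between 11316580 and 81129276 counts on genes (median 26239614), and the lowest correlation between libraries of 1 condition was 0.996. Neuron markers dominated: 8 of them summed to between 5796 and 7681 CPM (counts scaled to a common library size) in the 45 libraries, whereas 5 microglia markers summed to between 4.31 and 8.09 CPM and 5 endothelial markers to between 1.38 and 6.20 CPM. Astrocyte, oligodendrocyte lineage and mural cell or fibroblast markers were present at up to 1407, 312 and 154 CPM. No marker was at 0 in all libraries of a condition. P-values here measure the spread between separate culture preparations, and an adjusted p is a Benjamini-Hochberg value from edgeR's quasi-likelihood test over all genes with a read.

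Per kilobase of annotated exon, which allows levels of different genes to be compared, the order in Control was Mef2d, Hdac5, Mef2c, Mef2a, Hdac9, Hdac4, Hdac7 and Mef2b. Mef2d stood at 30.5 ± 4.67 CPM per kb and Hdac5 at 26.05 ± 2.29 CPM per kb (SD, n = 5), and the ranges of these neighbours overlapped. Mef2c at 16.6 ± 1.83 CPM per kb and Mef2a at 13.7 ± 1.13 CPM per kb also overlapped. Below them, no neighbours overlapped: Hdac9 was at 8.40 ± 1.49, Hdac4 at 4.90 ± 0.768 and Hdac7 at 2.17 ± 0.245 CPM per kb. Mef2b, which outside the nervous system is best known from B cells, was close to undetected at 0.354 ± 0.159 CPM per kb, with between 3 and 53 reads in any library, and 4.42% of its exon bases are shared with its neighbour Borcs8. Mef2d thus made up 49.7 ± 3.47% of the Mef2 mRNA of Control neurons by this measure, and Hdac5 made up 62.8 ± 2.44% of the class IIa HDAC mRNA.

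**Figure D1:**
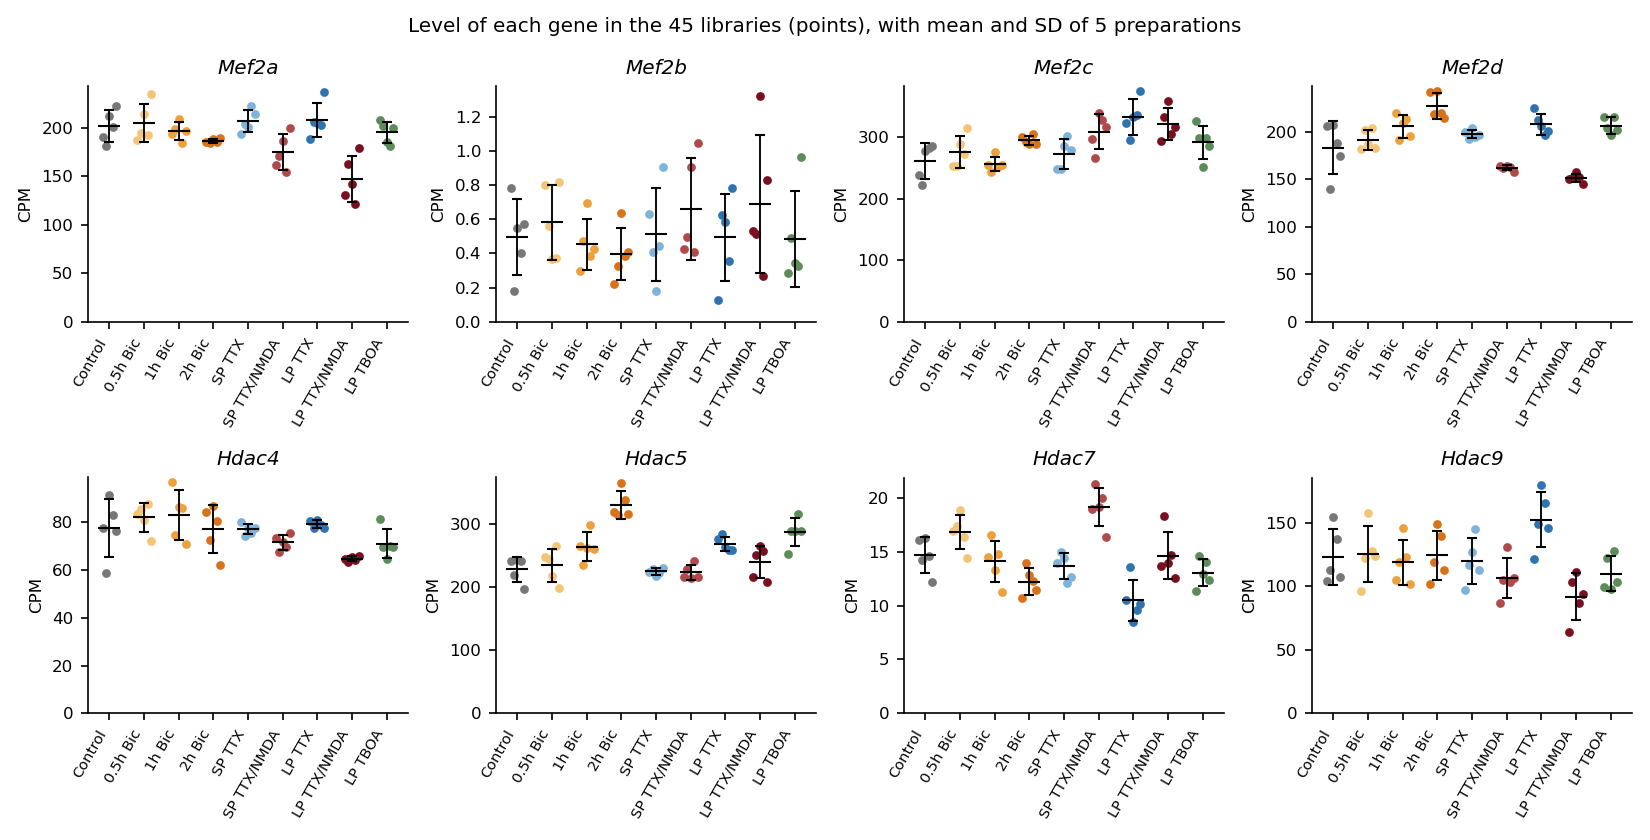
CPM of each gene (vertical axes, from 0) in the 9 conditions (horizontal axes), where each point is the library of 1 culture preparation and bars give mean and SD of 5. Mef2a, Mef2d, Hdac4 and Hdac9 have their lowest means after LP TTX/NMDA, Hdac5 and Mef2d their highest after 2 h Bic, and Mef2b stays at or under 1.32 CPM.

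AP firing for 2 h raised Hdac5 and Mef2d relative to Control, and no other member passed the test in that comparison. Hdac5, a class IIa HDAC studied in the brain for its export from the nucleus by neuronal activity, had 241, 219, 243, 242 and 198 CPM in the Control libraries of preparations 1, 3, 6, 7 and 8. After 2 h Bic the same preparations had 319.9, 314, 366, 339 and 316 CPM. Every 2 h library was above every Control library. The log2 fold change was 0.52 (SE 0.08, adjusted p = 7.22e-06), an increase by 43.6%.

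Mef2d, the most abundant Mef2 mRNA here per length, had 206, 139, 207, 188 and 174 CPM in Control and 242, 219, 243, 219 and 214 CPM after 2 h Bic. It was higher in 5 of 5 preparations and the ranges did not overlap, with a log2 fold change of 0.30 (SE 0.09, adjusted p = 0.0232). These 2 members were 2 of 8 higher and 0 of 8 lower, against 4.24% of all genes tested that were higher and 4.78% that were lower. Among genes with a mean of at least 1 CPM, a class to which 7 of the 8 members belong, 8.18% were higher and 10.4% lower.

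For Hdac5, the step between 1 and 2 h Bic passed the test, and that between Control and 1 h did not. After 0.5 h Bic 0 of 8 members were called, against 0.289% of all genes, with 0 unadjusted p under 0.05 and a smallest adjusted p of 0.844. After 1 h Bic again 0 of 8 were called, against 1.16% of all genes, although 1 of them, Hdac5, had an unadjusted p under 0.05 (1h Bic libraries at 266, 236, 262, 299 and 262 CPM, log2 fold change 0.21, adjusted p = 0.489). By DESeq2, too, 0 members were called at either time. Between 1 and 2 h Bic, Hdac5 rose by a further 0.32 on the log2 scale (SE 0.07, adjusted p = 0.00115), without overlap. Mef2c was the other member called between these times, at 0.20 (SE 0.06, adjusted p = 0.0453), against 5.33% of all genes called in either direction. That call of Mef2c was lost without preparation 1, 3 or 7 (adjusted p = 0.183, 0.182 and 0.293), where its log2 fold change was 0.19, 0.19 and 0.17. It was also lost with all 45 libraries in the fit (adjusted p = 0.148). Under the replicate block, which compares libraries of the same preparation, Mef2d was called as well (log2 fold change 0.14, adjusted p = 0.00746), where the block called 23.5% of the genes it tested, those that pass edgeR's low-count filter.

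Hdac7, known mainly from lymphocytes and blood vessels, was scarce in these cultures. Its libraries held 16.1, 14.2, 16.3, 14.6 and 12.2 CPM in Control and 10.7, 13.9, 12.9, 12.3 and 11.4 CPM after 2 h Bic, lower in 5 of 5 preparations with overlapping ranges. The log2 fold change of -0.27 (SE 0.10) did not pass the test (adjusted p = 0.105), but did so under the replicate block (adjusted p = 0.0329, with 29.3% of the genes tested called in that fit) and without preparation 3 (adjusted p = 0.0418). For the remaining members the 2 h values were 0.16 for Mef2c (adjusted p = 0.268), -0.12 for Mef2a, -0.17 for Mef2b, -0.02 for Hdac4 and 0.00 for Hdac9. The 95% interval of Hdac9 ran from -0.20 to 0.20 and that of Hdac4 from -0.21 to 0.17, so changes of that size were not detectable.

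Hdac5 was lower after LP TTX than after 2 h Bic alone. After LP TTX its libraries held 277, 285, 265, 259.6 and 259 CPM, all below the lowest 2 h Bic library, and the log2 fold change was -0.31 (SE 0.06, adjusted p = 0.00109). It was the 1 member of 8 called for this passive effect, against 4.65% of all genes. The mean of Hdac5 was 264.7 CPM at 1 h Bic, when TTX was added, and 268.8 CPM after LP TTX, a pair that was not tested. The 2h Bic libraries also enter the comparison with Control. The higher value against Control and the lower value after LP TTX are therefore not independent measurements of Hdac5. Hdac9, a class IIa HDAC that also has a short form lacking the catalytic domain, was at 122, 149, 180, 166 and 146 CPM after LP TTX and at 102, 119, 149, 140 and 112 CPM after 2 h Bic. It was higher in 5 of 5 preparations, by 0.28 on the log2 scale (SE 0.09, adjusted p = 0.0559). Without preparation 1, 6, 7 or 8 this value passed the threshold (adjusted p = 0.0308, 0.0202, 0.0324 and 0.0172), which made 2 members called in place of 1.

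Compared within preparations, more members passed the test for the passive effect. The replicate block called 6 of 8 members in LP TTX against 2h Bic: Hdac9 (0.28, adjusted p = 3.38e-05), Mef2c (0.15, adjusted p = 0.0129) and Mef2a (0.14, adjusted p = 0.017) were higher, and Hdac5, Mef2d (-0.15, adjusted p = 0.00878) and Hdac7 (-0.25, adjusted p = 0.0176) were lower. The block called 32% of the genes it tested in this comparison, in either direction. In the SP, 0.5 h of TTX gave no call among the members, against 0.268% of all genes, with 1 unadjusted p under 0.05. That was again Hdac5, at 225, 229, 219, 222 and 231 CPM after SP TTX, below every 1h Bic library (log2 fold change -0.24, adjusted p = 0.256 in edgeR and 0.0435 in DESeq2, which called 1 member and 0.258% of all genes).

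NMDA receptor signaling on top of TTX lowered 4 members in the LP and raised 1. Mef2a, Mef2d, Hdac4 and Hdac9 fell and Hdac7 rose, while Mef2c, Hdac5 and Mef2b did not pass the test. These are 4 of 8 lower and 1 of 8 higher, where 11.8% of all genes tested were lower and 11.6% higher. Among genes with a mean of at least 1 CPM, 26.9% were lower and 20% higher. The members' median log2 fold change was -0.24, against 0.11 over all 32852 genes tested and -0.01 over the 13592 genes of at least 1 CPM.

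Among the 8 members, Hdac9 had the largest change. From the LP TTX values given above it went to 63.8, 104, 112, 86.7 and 93.8 CPM after LP TTX/NMDA, so that all 5 libraries with NMDA were below all 5 without. The log2 fold change was -0.74 (SE 0.11, adjusted p = 3.07e-06), so its level decreased by 40.2%.

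Mef2a, which shares its DNA-binding domain type with Mef2d and often pairs with it, had 189, 206, 205, 203 and 237 CPM after LP TTX. With NMDA it had 131, 163, 143, 121 and 179.5 CPM, again without overlap (log2 fold change -0.51, SE 0.08, adjusted p = 2.9e-05). Mef2d fell from 225, 212, 206, 196 and 200.4 CPM to 149.8, 151, 157, 152 and 145 CPM. Its spread within a condition was small, and the log2 fold change was -0.47 (SE 0.06, adjusted p = 1.14e-06).

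Hdac4, a repressor needed for normal synaptic function and memory in mice, had 80.6, 77.5, 81.2, 78.9 and 77.6 CPM in the LP TTX libraries and 64.5, 63.5, 65.6, 64.1 and 65.9 CPM with NMDA. These groups did not overlap, and the change was -0.30 (SE 0.06, adjusted p = 0.000482). Hdac7 went the opposite way, from 10.6, 13.5, 8.47, 9.60 and 10.2 CPM to 13.6, 18.3, 13.99, 14.7 and 12.5 CPM. It was higher in 5 of 5 preparations, with overlapping ranges, by 0.47 (SE 0.12, adjusted p = 0.00259).

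Mef2c, the Mef2 factor most studied in forebrain development and inherited intellectual disability, had between 295 and 376 CPM after LP TTX and between 294 and 359.9 CPM after LP TTX/NMDA. The log2 fold change was -0.06 with a 95% interval from -0.20 to 0.08, an interval that ends above the values of Mef2a and Mef2d. Hdac5 was at 217, 251, 266, 258 and 209 CPM with NMDA, lower in 4 of 5 preparations (-0.17, SE 0.07, adjusted p = 0.0832). Hdac5 was called under the replicate block (-0.15, adjusted p = 0.0276, with 62.1% of the genes tested called in that fit), without preparation 6 (-0.24, adjusted p = 0.0323) and, at the threshold, without preparation 7 (-0.21, adjusted p = 0.05). Mef2b had a value of 0.33 with an SE of 0.34, too few reads to show a change.

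**Figure D2:**
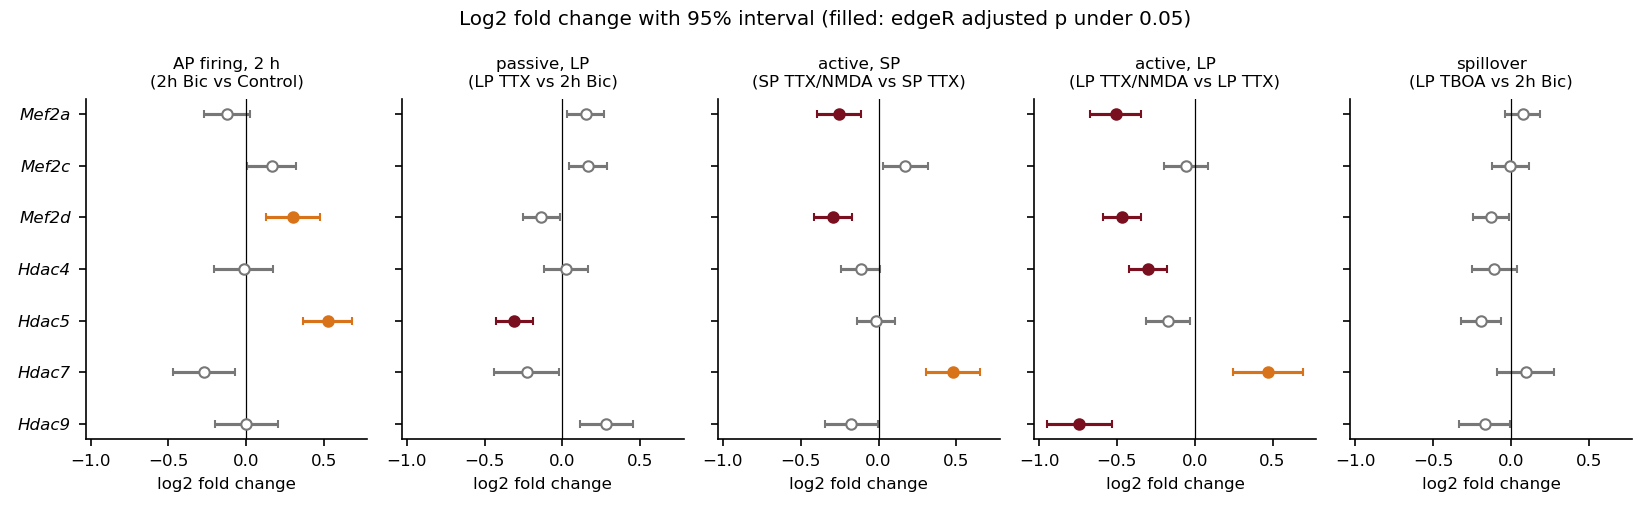
Log2 fold change (horizontal axes) of 7 members, with 95% intervals, in 5 comparisons; filled points passed edgeR's adjusted p threshold of 0.05, orange for higher and red for lower, and Mef2b is left out for its few reads. The filled points are Hdac5 and Mef2d to the right for AP firing, and 4 members to the left and Hdac7 to the right for the LP active effect, and no point is filled for glutamate spillover.

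Cell type markers moved in the same libraries. From LP TTX to LP TTX/NMDA, the summed neuron markers went from between 6878 and 7681 CPM to between 5930 and 6489 CPM, a ratio of means of 0.848. Of the 8 neuron markers, 3 were called lower and 0 higher, and their median log2 fold change was -0.07. The astrocyte markers went from between 385 and 774 CPM to between 719 and 1407 CPM, and 5 of 5 were called higher. Of the oligodendrocyte lineage markers 5 of 6 and of the mural cell and fibroblast markers 4 of 5 were called higher. Fewer neurons and less RNA per neuron cannot be told apart in bulk RNA, and the part of these shifts in the members' changes was not tested. Endothelial markers, which matter for Hdac7, summed to between 2.60 and 6.20 CPM with NMDA and to between 2.49 and 4.19 CPM without. Their ratio of means was 1.51, higher in 5 of 5 preparations, with 1 of 5 markers called higher.

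In the SP, Mef2d fell and Hdac7 rose within 0.5 h of NMDA. Mef2d had between 192 and 204 CPM after SP TTX and between 158 and 164 CPM after SP TTX/NMDA, with no overlap (log2 fold change -0.29, SE 0.06, adjusted p = 0.00226). Hdac7 rose from 13.9, 15.01, 14.4, 12.1 and 12.7 CPM to 19.01, 21.3, 19.2, 19.99 and 16.3 CPM, also with no overlap (0.48, SE 0.09, adjusted p = 0.000542). Summed endothelial markers were at 1.69 to 4.99 CPM in these SP TTX/NMDA libraries. After SP TTX they were at 2.04 to 3.64 CPM (ratio of means 1.20, higher in 3 of 5 preparations). Astrocyte markers were at 427 to 857 against 424 to 973 CPM (ratio 0.953, higher in 4 of 5). Mural cell and fibroblast markers had a ratio of 1.26 and oligodendrocyte lineage markers 1.13, both higher in 4 of 5. None of these was called, whereas of 8 neuron markers 2 were lower and 1 higher (ratio 0.972, lower in 5 of 5). The part of these shifts in the members' changes was not tested.

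Mef2a was lower in 5 of 5 preparations, by 0.25 on the log2 scale (-0.25, SE 0.07, adjusted p = 0.0341). That call was lost over genes that pass edgeR's low-count filter (adjusted p = 0.0551), with all 45 libraries (0.0584) and without preparation 1, 3 or 7 (0.107, 0.0696 and 0.252). The SP active effect thus took in 2 of 8 members lower and 1 of 8 higher, against 3.32% and 0.956% of all genes, or 7.81% and 1.73% of genes with a mean of at least 1 CPM. Mef2c, at 0.17 (adjusted p = 0.251), was called higher under the replicate block (0.18, adjusted p = 0.0231, with 16.2% of the genes tested called in that fit), the direction opposite to Mef2a and Mef2d. Hdac9 had -0.17 (adjusted p = 0.376), Hdac4 -0.12 (adjusted p = 0.433) and Hdac5 -0.02 (adjusted p = 0.922).

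Whether the active effect differed between protocols was tested as the difference of the log2 fold changes, LP minus SP. Hdac9 was the 1 member of 8 called, against 2.57% of all genes, with a difference of -0.55 (SE 0.16, adjusted p = 0.049) and the same sign in 5 of 5 preparations. This call stood at the threshold. The adjusted p was 0.0762 with the low-count filter, 0.0588 with the normalization of DESeq2 (RLE), 0.0582 with all 45 libraries, and 0.0602 and 0.0747 without preparation 3 and 6.

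Under the replicate block 5 members were called for this difference: Hdac9 (-0.57, adjusted p = 0.00038), Mef2a (-0.25, adjusted p = 0.0369), Mef2c (-0.22, adjusted p = 0.0404), Hdac4 (-0.18, adjusted p = 0.013) and Mef2d (-0.17, adjusted p = 0.0286). In that fit 25% of the genes tested were called. DESeq2 called 3, which were Hdac9, Hdac4 and Mef2d, and 4.74% of all genes. For Hdac7 the difference was 0.01 with a 95% interval from -0.28 to 0.29, so its rise of similar size in both protocols is known only within that interval.

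**Figure D3:**
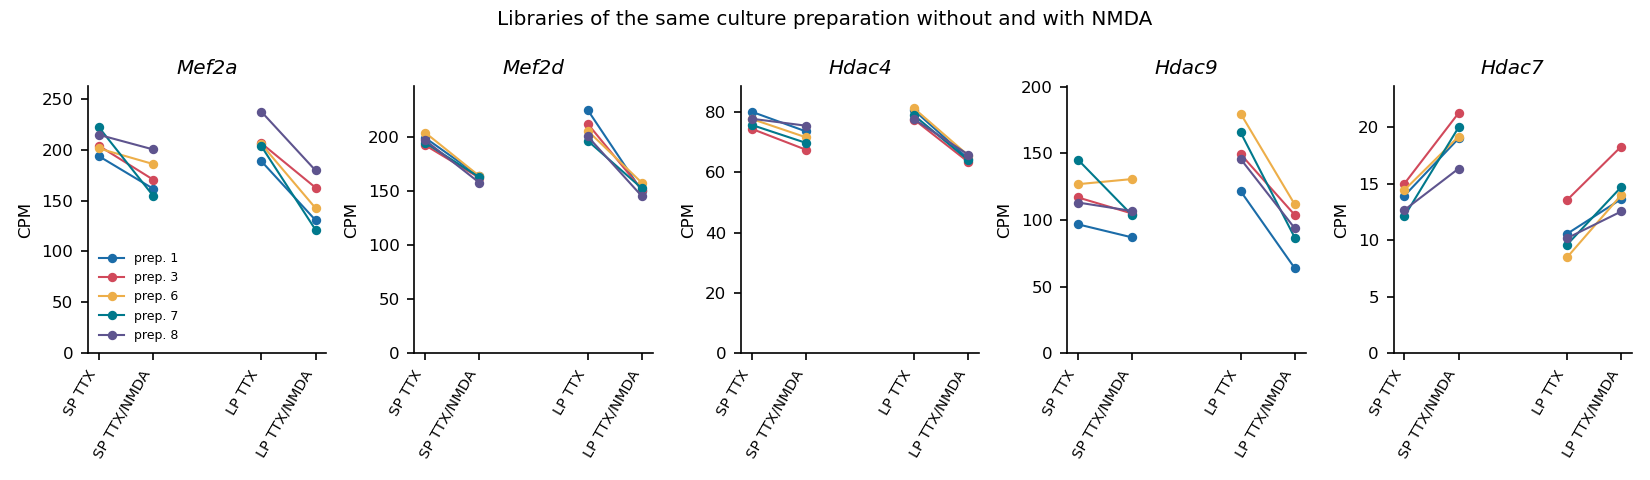
CPM (vertical axes, from 0) of 5 members in the TTX and TTX/NMDA libraries of each protocol (horizontal axes), with a line joining the libraries of 1 culture preparation. All lines of Mef2a, Mef2d and Hdac4 slope down in both protocols and all of Hdac7 slope up, whereas 5 of 5 lines of Hdac9 slope down in the LP and 4 of 5 in the SP.

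For the total of passive and active effects in the LP, 5 members were lower than after 2 h Bic, among them Hdac5 and Mef2d. LP TTX/NMDA against 2h Bic gave -0.48 for Hdac5 (SE 0.07, adjusted p = 5.96e-06) and -0.60 for Mef2d (SE 0.07, adjusted p = 1.03e-08), the 2 members that were higher after 2 h Bic than in Control, a comparison that shares these 2h Bic libraries. Mef2a (-0.35, adjusted p = 0.000716), Hdac9 (-0.46, adjusted p = 0.00103) and Hdac4 (-0.27, adjusted p = 0.00917) were also lower, so 5 of 8 members were lower and 0 higher. Of all genes tested, 11.1% were lower and 11.7% higher, and of those with a mean of at least 1 CPM, 25.1% and 20.2%. The Hdac4 call was lost without preparation 1 or 6 (adjusted p = 0.0747 and 0.0723). Hdac7 (0.24, adjusted p = 0.0896) was called higher under the replicate block (0.27, adjusted p = 0.00403, with 56.6% of the genes tested called in that fit), with the low-count filter (adjusted p = 0.0453) and without preparation 8 (adjusted p = 0.0467). Mef2b, at 0.60 (adjusted p = 0.223), was called under the block too (0.78, adjusted p = 0.0213), with between 4 and 30 reads a library in these conditions.

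Against untreated neurons, LP TTX/NMDA left Mef2a (-0.46, adjusted p = 0.00035), Hdac9 (-0.43, adjusted p = 0.00497), Mef2d (-0.28, adjusted p = 0.0259) and Hdac4 (-0.27, adjusted p = 0.035) lower and Mef2c higher (0.29, adjusted p = 0.0148). Of all genes, 8.55% were lower and 10.9% higher. Hdac5 was at 0.06 and Hdac7 at -0.01, with 95% intervals from -0.11 to 0.24 and from -0.23 to 0.21. Summed astrocyte markers had a ratio of means of 2.08 and mural cell and fibroblast markers 2.05, with 5 of 5 called higher in each. For oligodendrocyte lineage markers it was 1.64, with 5 of 6 called higher. For neuron markers it was 0.914, with 2 of 8 called lower and 2 higher. The part of these shifts in the members' changes was not tested. Without preparation 6, the calls of Mef2d (adjusted p = 0.106), Hdac4 (0.207) and Mef2c (0.0613) were lost, which left 2 members. Without preparation 1 or 7, those of Mef2d (0.128 and 0.0622) and Hdac4 (0.0783 and 0.122) were lost, which left 3. That of Mef2c was lost without preparation 3 (0.0519), and that of Hdac4 with the low-count filter (0.0527).

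Against the level before NMDA was added, at 1 h Bic, LP TTX/NMDA gave -0.45 for Mef2d (adjusted p = 3.1e-06), -0.43 for Mef2a (adjusted p = 9.3e-05), -0.39 for Hdac9 (adjusted p = 0.00381), -0.37 for Hdac4 (adjusted p = 0.000352) and 0.32 for Mef2c (adjusted p = 0.00085). Hdac7 (0.04, adjusted p = 0.818), Hdac5 (-0.15, adjusted p = 0.184) and Mef2b (0.40, adjusted p = 0.419) were not called. With a mean of 14.6 CPM after LP TTX/NMDA, Hdac7 was above its 10.5 CPM after LP TTX and near its 14.1 CPM at 1 h Bic. In this comparison 10.2% of all genes were lower and 10.9% higher. These comparisons share the LP TTX/NMDA libraries and are not independent of each other.

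In the SP, the total effect (SP TTX/NMDA against 1h Bic) called Mef2d (-0.35, adjusted p = 0.000286) and Hdac5 (-0.25, adjusted p = 0.0264) lower and Hdac7 (0.43, adjusted p = 0.00312) and Mef2c (0.27, adjusted p = 0.0167) higher. That is 2 of 8 members in each direction, against 3.41% of all genes lower and 0.891% higher. The Hdac5 call was lost without preparation 1, 6 or 7 (adjusted p = 0.13, 0.099 and 0.0744) and the Mef2c call without preparation 7 (0.0939). Without preparation 7 there were thus 2 calls in place of 4. Without preparation 8, Hdac4 (-0.29, adjusted p = 0.0042) and Mef2a (-0.23, adjusted p = 0.0234) were called. Under the replicate block 7 members were called, the additional ones being Hdac4 (-0.22, adjusted p = 0.0137), Hdac9 (-0.17, adjusted p = 0.0216) and Mef2a (-0.19, adjusted p = 0.00945). The block called 27.3% of the genes it tested in this comparison.

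For glutamate spillover through TBOA, no member passed the test against 2 h Bic alone. The count was 0 of 8, against 0.602% of all genes, with 2 members at an unadjusted p under 0.05 and 0 called by DESeq2. Those 2 were Hdac5, which had 253, 289, 289, 316 and 290 CPM after LP TBOA (-0.19, 95% interval from -0.32 to -0.07, adjusted p = 0.293), and Mef2d (-0.13, 95% interval from -0.24 to -0.01, adjusted p = 0.593). Both were lower than after 2 h Bic in 5 of 5 preparations. For Mef2a, Mef2c, Hdac4, Hdac7 and Hdac9 the values lay between -0.17 and 0.10, and Mef2b had 0.22 with an SE of 0.35.

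TBOA did differ from TTX for Hdac9. After LP TBOA its libraries held 99.1, 122, 97.6, 127 and 103.5 CPM, lower than after LP TTX in 5 of 5 preparations (-0.47, SE 0.08, adjusted p = 0.000154). This was 1 of 8 members, against 4.26% of all genes. Hdac7, at 11.4, 14.6, 12.9, 14.01 and 12.4 CPM after LP TBOA, was higher than after LP TTX in 5 of 5 preparations (0.31, adjusted p = 0.106), and was called under the replicate block (0.33, adjusted p = 0.0322, with 12.2% of the genes tested called in that fit) and without preparation 1 or 3 (adjusted p = 0.036 and 0.0355). Glial markers moved between these libraries too. From LP TTX to LP TBOA, 2 of 6 oligodendrocyte lineage markers and 1 of 5 astrocyte markers were called higher and none lower. The ratios of their summed means were 1.25, higher in 5 of 5 preparations, and 1.30, higher in 4 of 5. The summed neuron markers had a ratio of 0.956 with 0 of 8 called, and the part of these shifts in the values of Hdac9 and Hdac7 was not tested.

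The composition of each family shifted with these changes. Per kilobase, the summed Mef2 mRNA was 61.3 ± 6.57 CPM per kb in Control, 69.7 ± 2.35 after 2 h Bic, 70.4 ± 2.33 after LP TTX and 56.3 ± 2.97 after LP TTX/NMDA. Mef2c made up 30.1 ± 1.95% of it after LP TTX and 36.4 ± 1.23% after LP TTX/NMDA, with no overlap between libraries. Mef2d went from 49.3 ± 3.01% to 44.96 ± 2.35%, and Mef2a from 20.1 ± 1.34% to 17.8 ± 2.43%. A share can rise because other members fell, and the CPM of Mef2c itself differed by less than its error in this comparison.

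Among the class IIa HDACs, the summed level was 52.9 ± 4.18 CPM per kb after 2 h Bic and 39.9 ± 3.96 after LP TTX/NMDA, against 41.5 ± 4.11 in Control. Hdac5 held 71.3 ± 1.31% of it after 2 h Bic, 64.4 ± 2.41% after LP TTX and 68.5 ± 2.06% after LP TTX/NMDA, so its share with NMDA was below that after 2 h Bic and above that after LP TTX, with overlapping libraries both times. Hdac9 held 21.8 ± 2.86% after LP TTX and 15.7 ± 2.25% after LP TTX/NMDA, and Hdac7 held 3.26 ± 0.542% and 5.44 ± 0.65%.

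**Figure D4:**
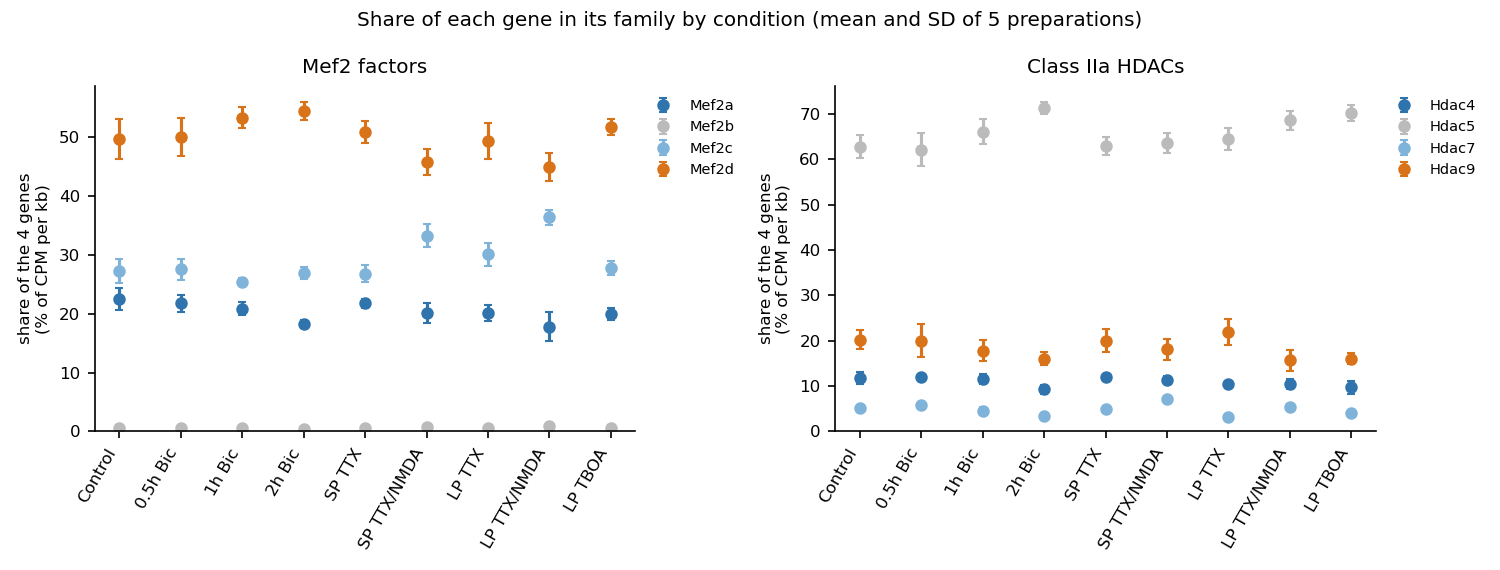
Share of each gene in the summed CPM per kb of its family of 4 (vertical axes, percent, from 0) in the 9 conditions (horizontal axes), as mean and SD of 5 preparations. The Mef2c share is highest after LP TTX/NMDA, at 36.4%, the Hdac5 share is highest after 2 h Bic, at 71.3%, and Hdac7 is highest after SP TTX/NMDA, at 7.06%.

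Over the 9 condition means, Mef2a, Hdac4 and Hdac9 followed each other (Pearson r of log2 CPM 0.84 for Mef2a and Hdac4, 0.83 for Mef2a and Hdac9, 0.80 for Hdac4 and Hdac9). Mef2d had an r of 0.72 with Hdac5, 0.72 with Mef2a, 0.70 with Hdac9 and 0.67 with Hdac4, so it was no nearer to Hdac5 than to Mef2a. Mef2a and Mef2c had -0.48. These are descriptions over 9 points that share culture preparations and normalization.

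The genes with a mean of at least 1 CPM whose 9 means were most like a member's were as follows. For Mef2a they were 5730455P16Rik and Slc16a7 (r of 1.00 for both at 2 decimals), for Mef2c Fam98b and Ppargc1a (0.96 for both), and for Mef2d Ttbk1 and Ski (0.99 for both). For Hdac4 they were Ppp1r3e and Pm20d2 (0.97 for both), for Hdac5 Cbarp (0.97), for Hdac7 Dusp22 (0.97) and Ccdc151 (0.95), and for Hdac9 Zfp382 (0.99) and Ino80 (0.98). Over the 45 libraries less the mean of each preparation, only Ttbk1 stayed among the 2 nearest genes of its member, with an r of 0.97.

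The genes that act on or with these proteins were read from lists by role. The kinases that phosphorylate class IIa HDACs (CaMK, PKD, SIK and MARK families) had 3 of 16 higher and 0 lower after 2 h Bic, with a list median of 0.09 against -0.01 over all genes tested. Here, as for the other lists, the shares of genes with a mean of at least 1 CPM that were called are 8.18% higher and 10.4% lower after 2 h Bic and 20% higher and 26.9% lower in the LP active effect, and for TBOA against 2h Bic 0.602% of all genes were called. The 3 kinases were the salt-inducible kinases Sik1 (log2 fold change 2.53, adjusted p = 1.36e-20) and Sik2 (1.09, adjusted p = 4.52e-09) and the calcium/calmodulin kinase Camk1g (0.40, adjusted p = 0.00143). In the LP active effect, 8 of 16 were lower and 3 higher (median -0.21, against 0.11 over all genes tested and -0.01 over genes with a mean of at least 1 CPM), beside 26.9% and 20% of genes of at least 1 CPM. The kinases with the largest changes were Sik2 (-1.53, adjusted p = 2.82e-14), Camk2a (-1.13, adjusted p = 1.15e-10), Camk4 (-0.81, adjusted p = 7.12e-09) and the protein kinase D gene Prkd3 (0.76, adjusted p = 0.000103). Sik2 was also the kinase called for TBOA against 2h Bic, with 0 higher and 1 lower of 16 (-0.45, adjusted p = 0.000147, median -0.07).

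Of the 14-3-3 genes, whose proteins hold phosphorylated class IIa HDACs in the cytoplasm, 0 of 7 were called after 2 h Bic (median 0.02) or for TBOA (median -0.02). In the LP active effect 3 of 7 were lower, where 26.9% of genes of at least 1 CPM were lower (median -0.18): Ywhag (-0.45, adjusted p = 6.45e-06), Ywhaz (-0.27, adjusted p = 0.00594) and Ywhah (-0.26, adjusted p = 0.00671). Phosphatases that act on Mef2 or class IIa HDAC proteins had 0 of 7 called after 2 h Bic (median -0.13) and for TBOA (0.05). With LP TTX/NMDA 3 of 7 were lower (median -0.19), namely the calcineurin genes Ppp3cb (-0.36, adjusted p = 0.000642) and Ppp3r1 (-0.26, adjusted p = 0.0113) and the PP2A catalytic gene Ppp2ca (-0.20, adjusted p = 0.0209).

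Kinases that act on Mef2 proteins had 0 of 5 called after 2 h Bic (median 0.00) and for TBOA (-0.05) and 1 of 5 lower in the LP active effect (median -0.07), the Cdk5 activator Cdk5r1 (-0.30, adjusted p = 0.000864).

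Mef2 cofactors had 0 of 5 called after 2 h Bic (median 0.02) and for TBOA (-0.10). With LP TTX/NMDA 3 of 5 were lower and 1 higher (median -0.22): the acetyltransferase gene Ep300 (-0.77, adjusted p = 1.7e-10), the calcineurin-binding repressor Cabin1 (-0.35, adjusted p = 0.000172) and Carm1 (-0.22, adjusted p = 0.0143) were lower and the acetyltransferase gene Kat2b (0.51, adjusted p = 0.000265) was higher. Of the HDACs outside class IIa, 1 of 7 was higher and 0 lower (median 0.13), Hdac10 (0.30, adjusted p = 0.0412). After 2 h Bic that list had Hdac6 higher (0.30, adjusted p = 0.00509) and Hdac2 lower (-0.26, adjusted p = 0.0426), with a median of 0.06, and for TBOA 0 of 7 were called (0.04).

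Genes described as Mef2 targets in neurons had the largest list median after 2 h Bic of the 7 lists. This order was no independent test, because the lists were chosen with earlier results of these data known. The authors also named Arc, Nr4a1, Homer1 and Bdnf, which are in this list, as activity-induced genes. In that comparison, 8 of 12 were higher and 0 lower, with a median of 1.09. The largest values were those of Klf4 (5.37, adjusted p = 1.41e-21), the synaptic plasticity gene Arc (5.23, adjusted p = 9.62e-24), the nuclear receptor Nr4a1 (4.25, adjusted p = 2.12e-24) and Jun (2.58, adjusted p = 1.8e-20). In the LP active effect they split: 7 of 12 were lower and 4 higher (median -0.25). The potassium channel gene Kcna1 (-2.10, adjusted p = 5.73e-16) and the scaffold gene Homer1 (-2.01, adjusted p = 4.17e-14) were lower, and Klf4 (2.25, adjusted p = 8.36e-11) and Nr4a1 (1.33, adjusted p = 1.93e-09) were higher.

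With TBOA, 0 of 12 were higher and 3 lower than after 2 h Bic (median -0.13): Homer1 (-0.55, adjusted p = 2.66e-06), Kcna1 (-0.47, adjusted p = 0.000366) and the neurotrophin gene Bdnf (-0.29, adjusted p = 0.0281). In the SP active effect, 7 of the 12 targets were lower and 0 higher, with a median of -0.63 against 0.04 over all genes tested and 0.01 over genes of at least 1 CPM. Of the 16 kinases 5 were lower and 0 higher (median -0.10). In this comparison 7.81% of genes of at least 1 CPM were lower and 1.73% higher. For the LP minus SP difference itself, 4 of 12 targets were higher and 2 lower, against 2.57% of all genes called in either direction. Many of these targets also respond to other activity-regulated factors, and what each factor contributed was not tested.

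**Figure D5:**
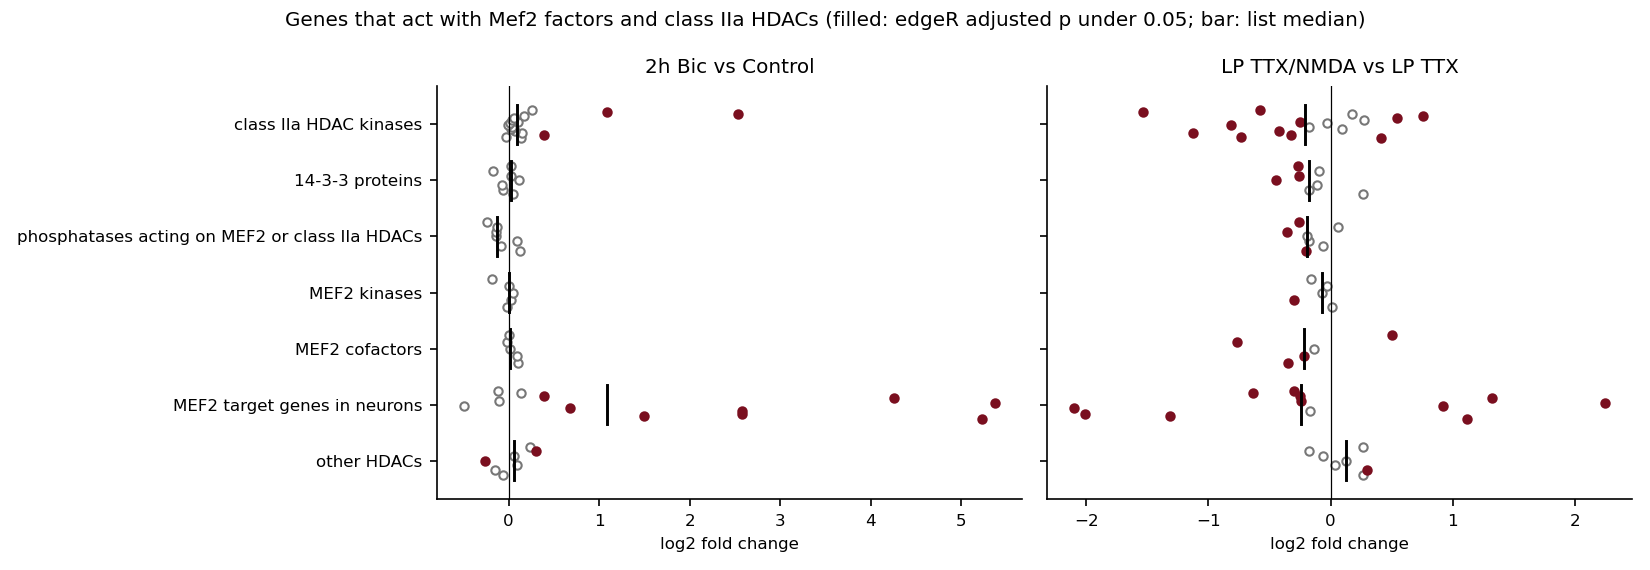
Log2 fold change (horizontal axes) of the genes of 7 lists (rows) after 2 h Bic and in the LP active effect; filled points passed edgeR's adjusted p threshold of 0.05 and bars mark list medians. Most points are open after 2 h Bic except among the Mef2 targets, where 8 of 12 are filled to the right, and in the LP active effect filled points lie on both sides.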

How the data were processed

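Poly-A RNA of 45 libraries from hippocampal cultures was sequenced with 75 cycles of single-end reads. The authors aligned the reads with STAR 2.5.4b (after bcl2fastq 2.20.0.422) to GRCm38 with Ensembl 94 genes and counted sense-strand reads with featureCounts 1.6.5, without multi-mapping or multi-overlapping reads. The deposited values are raw counts per gene. Libraries held 11316580 to 81129276 counts. No column of another sample was present and no 2 libraries were identical.

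Groups followed the sample labels. Each comparison used edgeR 4.0.16 (R 4.3.3), TMM normalization, the quasi-likelihood test on the libraries of the groups compared, every gene with a minimum of 1 read in 1 library, and Benjamini-Hochberg adjustment over all of them (threshold 0.05). The LP minus SP difference used the 4 groups in 1 fit. CPM are TMM-scaled, and CPM per kb divide by the union of exons of GENCODE M21 (Ensembl 96). Intervals are 95% normal intervals of the log2 fold change. The procedure was tested on simulated data.

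All 8 members are named. Of each list, up to 4 called genes with the largest absolute log2 fold change are named in 3 comparisons, and for likeness the 2 genes with the highest Pearson r over the 9 condition means. One gene most like Hdac5 and 1 further list are not reported here. Members and lists were chosen with earlier results of these data known. Symbols were found for 54409 of 54532 identifiers. The 5 culture preparations are given in the labels, so libraries of 1 number come from 1 preparation. Their deviations from the condition means correlated at 0.43 on average within a number (range -0.29 to 0.77) and at -0.11 between numbers. Alternatives were edgeR's low-count filter (filterByExpr), RLE normalization, DESeq2 1.42.0, a replicate block with that filter, all 45 libraries in the fit, leaving out each preparation, unscaled library sizes for CPM, and likeness over 45 libraries.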

Additional observations from a re-analysis of the deposited data

Results flagged for a closer look

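In 1 of 72 groups of 5 libraries tested (8 members in 9 conditions), a library stood apart from the others. Mef2d had 158 CPM in the SP TTX/NMDA library of preparation 8, while the other 4 lay between 162 and 164 CPM, a gap of 0.738 of the whole range where 0.71 is the limit. Chance gives such a gap in about 1 in 20 groups. The active effect on Hdac9 differed between protocols by -0.55 on the log2 scale (LP minus SP, adjusted p = 0.049 by edgeR's quasi-likelihood test), with adjusted p between 0.00038 and 0.0762 over the alternatives.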

How the results depend on the processing

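Of 120 log2 fold changes (8 members in 15 comparisons), 34 passed the threshold and 54 did so in at least 1 setting. None of these 54 changed sign in the 10 alternatives. Of the other 66, 23 changed sign in at least 1 setting, 16 of them for members other than Mef2b, whose values were at most 0.0813 in size. The number of members called moved by more than 1.5 times in the following cases. Between 1 and 2 h Bic it was 2, but 1 with all 45 libraries and 1 to 2 when a preparation was left out. For SP TTX against 1h Bic it was 0, but 1 by DESeq2. For the SP total it was 4, 7 under the replicate block and 2 to 6 when a preparation was left out. For LP TTX against 2h Bic it was 1, 6 under the block and 1 to 2 when a preparation was left out. For LP TBOA against LP TTX it was 1, 2 under the block and 1 to 2 when a preparation was left out. For LP TTX/NMDA against Control it was 5, and 2 to 5 when a preparation was left out. For the LP minus SP difference it was 1, but 0 with the low-count filter, 0 with RLE normalization, 0 with all 45 libraries, 3 by DESeq2, 5 under the block and 0 to 1 when a preparation was left out. The replicate block, which was fitted together with the low-count filter, added 19 calls, which are given beside the results, and changed no other call. The filter alone also gave the call of Hdac7 in LP TTX/NMDA against 2h Bic. The causes of these differences were not tested. Mef2b, with 3 to 53 reads a library, is the member for which depth limits what could be seen. Unscaled library sizes moved the mean CPM of 7 member and condition pairs by more than their SD, and Mef2d after LP TTX/NMDA to 162 CPM.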
